A study of Homo sapiens with 33 samples.

Results

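The genes described here are 40 genes of ribosome biogenesis, the pathway that makes and assembles the ribosomal subunits. They were taken by gene name from an expression matrix of 58302 genes, each name matched 1 row, and all 40 passed the filter on low values that left 17803 genes for testing. The study asked how malignant pleural mesothelioma cells respond to palbociclib, an inhibitor of the cell cycle kinases CDK4 and CDK6, and whether the response reverses when the drug is removed. RNA was sequenced from 33 libraries of 6 established human cell lines. Mesothelioma lines H2052 (2 experiments), H2452, H28 and MSTO-211H (3 experiments each) are called sensitive by the study, and MPP89 (2 experiments, a mesothelioma line with mutated RB1) and MeT-5A (1 experiment, normal mesothelial cells immortalized by SV40) are resistant. Every experiment had 1 library of cells kept in 0.1% DMSO and 1 of cells kept in 1 µM palbociclib for 9 or 10 days. For 1 experiment of each sensitive line there was also a library of cells treated for 10 days and then kept without drug for 48 h, and MeT-5A had 1 library of untreated cells. Each line is a single established culture.

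Ribosome biogenesis begins in the nucleolus, where RNA polymerase I transcribes the long precursor of the ribosomal RNAs. Small nucleolar ribonucleoproteins (snoRNPs) then methylate the precursor (box C/D class, with fibrillarin as the enzyme) or convert uridines to pseudouridine (H/ACA class, with dyskerin). The small subunit (40S) processome folds and cuts the precursor on one side, a series of assembly factors builds the large subunit (60S) on the other, and abundant nucleolar proteins such as nucleophosmin and nucleolin take part in several steps. The pathway is among the largest users of energy in a growing cell, and its genes are known as targets of MYC.

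Values are CP20M, counts per 20000000 reads, which the authors rounded up to whole numbers. They are shares of a library, so a change in the total RNA of a cell does not show in them, and fewer cells of a kind and less RNA per cell cannot be told apart. Differences are on the scale of log2(CP20M + 10). A gene was called when its false discovery rate (FDR, the Benjamini-Hochberg adjusted p of limma over all 17803 genes) was under 0.05 and its fold change exceeded 1.5. Every column adds up to slightly more than 20000000, so the depth is not given by the totals. From whole numbers that never occur among the low values it was estimated at 12770000 to 19970000 reads in 23 libraries, with a median of 16390000, and 10 libraries skipped none. At the lowest of these depths 1 read is worth 1.57 CP20M, far below the level of any of the 40 genes. Mesothelial markers (MSLN, CALB2, WT1, UPK3B, PDPN and 4 keratins) summed to between 11195 CP20M in H28 and 140606 in MSTO-211H. In every line the highest of them was a keratin, KRT8 or KRT19. Other markers were near 0 in some lines. WT1 did not exceed 2 in MeT-5A, and CALB2, PDPN and MSLN did not exceed 2, 4 and 15 in H28. PDPN did not exceed 3 in MSTO-211H or 20 in MPP89, UPK3B 11 in H2052, KRT19 3 in MeT-5A and 10 in MSTO-211H, and KRT5 22 in any line. The T cell marker CD3E was at 0 in every library, whereas the monocyte marker CD14 reached 1130 in H2452. PECAM1, an endothelial marker, reached 120 in H2452, and the leukocyte marker PTPRC reached 42 in MPP89.

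In the sensitive lines the RNA of most ribosome biogenesis genes was lower with palbociclib, by a small amount for all but a few. Over the 11 pairs of DMSO and palbociclib libraries, 3 of the 40 genes were called lower, FBL, LYAR and NPM1, against 9.37% of all genes tested, and 0 were called higher, against 5.58%. At an FDR under 0.05 and any fold change, 30 of the 40 were lower (33.7% of all genes tested) and 0 were higher (14.6%). The median log2 fold change was -0.31 for the 40 genes and -0.11 for all genes tested. In 17 genes the palbociclib library was the lower one in all 11 pairs, in a further 13 it was lower in 9 or 10 pairs, and in 10 it was lower in fewer. Pairs were not counted in this way over all genes. Fold changes below 0 on the log2 scale were found for 38 of the 40 genes, against 62.4% of all genes tested. Over all sensitive lines together, the DMSO and palbociclib libraries overlapped for each of the 40 genes, since lines differed in level. The median was -0.28 over the 7 pairs of 9 days and -0.39 over the 4 pairs of 10 days, a difference that was not tested. The lines weigh differently in these sets of pairs. Within a line, the pair of 10 days had the lowest median in H2452 (-0.48) and MSTO-211H (-0.30). In H2052 it was at -0.58 against -0.65 at 9 days, and in H28 at -0.21 between -0.32 and -0.16. The size of the fall depended on the scaling. Median-of-ratios scaling moved the median of all genes from -0.11 to 0.06 and that of the 40 genes to -0.11, and it left 1 gene called lower (FBL, 5.17% of all genes) and 16 lower at an FDR under 0.05 (17.1% of all genes). The distance between the median of the 40 genes and that of all genes was -0.19 as deposited and -0.17 under this scaling. Over all genes, 1669 were called lower and 994 higher as deposited, and 920 lower and 1759 higher under median-of-ratios scaling.

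**Figure D1:**
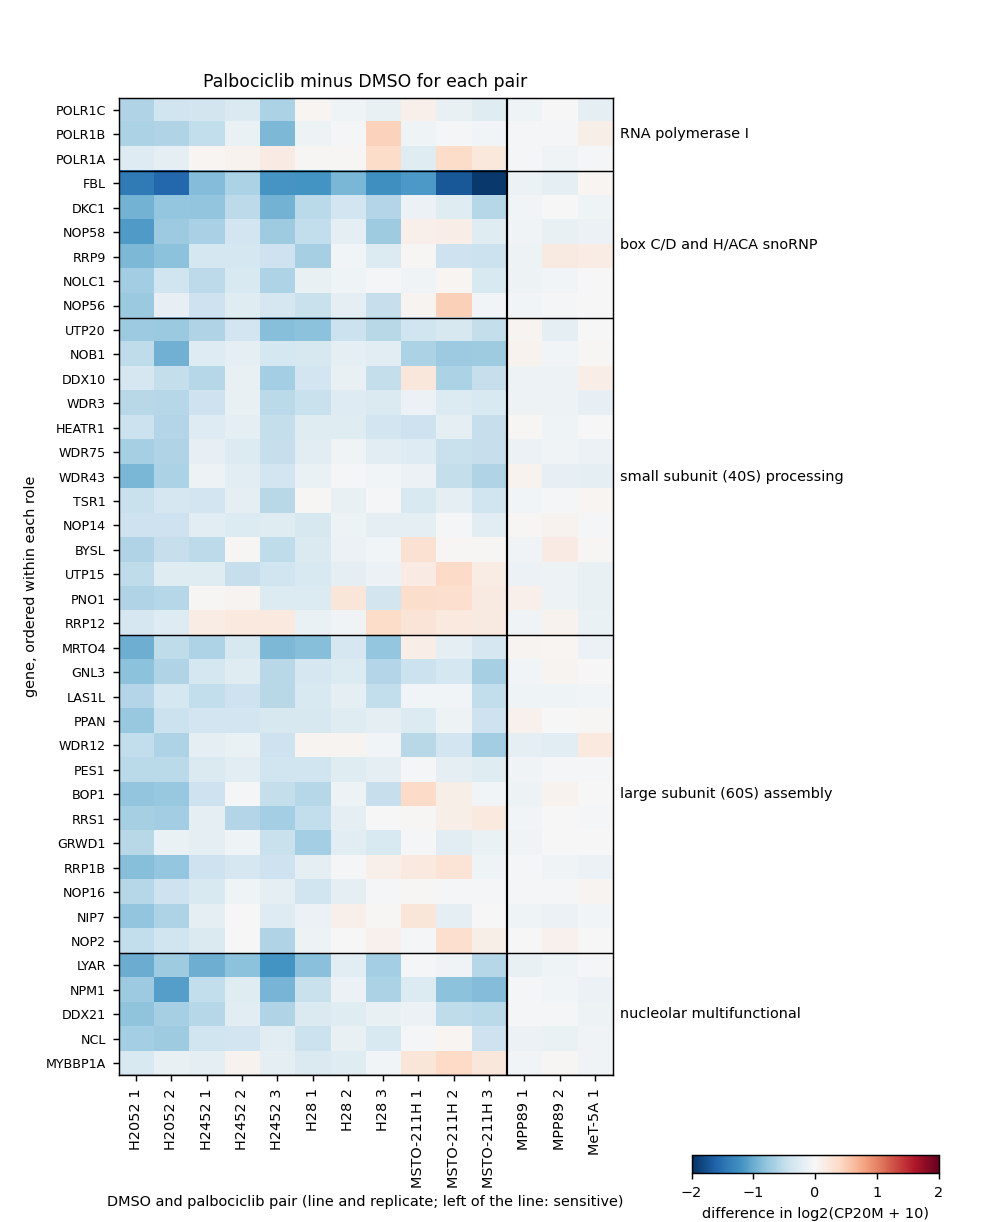
Difference in log2(CP20M + 10) between palbociclib and DMSO for the 40 genes (rows, grouped by role) in each of the 14 pairs (columns, with sensitive lines to the left of the vertical line). FBL is the darkest row in the sensitive lines, H2052 is lower for all 40 genes, and the 3 columns of MPP89 and MeT-5A are close to white.

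Among the 6 snoRNP genes, all 6 were lower at an FDR under 0.05, with a median log2 fold change of -0.44. FBL, which encodes fibrillarin, the methyltransferase of the box C/D particles, had the largest fall of all 40 genes. In H2052, FBL stood at 1655 and 1749 CP20M in DMSO and at 618 and 580 in palbociclib. In H2452 it stood at 773, 703 and 1029 in DMSO and at 420, 450 and 448 in palbociclib. The lowest DMSO library of each of these lines was above the highest palbociclib library of the same line. In H28, FBL went from 2158, 1995 and 1903 to 936, 1049 and 810. In MSTO-211H it went from 2081, 3729 and 3279 to 935, 1146 and 851. All 11 pairs therefore moved the same way and no line showed overlap between its own DMSO and palbociclib libraries, although the DMSO libraries of H2452 lay below some palbociclib libraries of other lines. The log2 fold change was -1.25 ± 0.11 (SE, n = 11 pairs, limma adjusted p = 2.14e-06), and it lay between -1.48 and -1.06 under the 25 other settings tried, all of them past the threshold. DKC1, which encodes dyskerin, the pseudouridine synthase of the H/ACA particles, ranged from 1294 to 3096 CP20M in DMSO with a median of 1903, and from 812 to 2490 in palbociclib with a median of 1666. Its log2 fold change, -0.58 ± 0.08 and negative in every pair, was just inside the fold threshold. NOP56 and NOP58 are the paired core proteins of the box C/D particle. They did not keep step with FBL, with log2 fold changes of -0.23 ± 0.09 for NOP56 and -0.45 ± 0.11 for NOP58, each lower in 9 of 11 pairs. RRP9, which binds the U3 snoRNA, and NOLC1, a chaperone of snoRNPs, had log2 fold changes of -0.42 ± 0.09 and -0.28 ± 0.07.

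The 3 subunits of RNA polymerase I were not called in either direction. POLR1A, the largest catalytic subunit, ranged from 2110 to 4971 CP20M in DMSO (median 3363) and from 2271 to 5674 in palbociclib (median 3402). Its level was higher in 8 of 11 pairs (log2 fold change 0.05 ± 0.07, limma adjusted p = 0.539). POLR1B, the second catalytic subunit, ranged from 665 to 2753 in DMSO and from 435 to 2701 in palbociclib, with a log2 fold change of -0.24 ± 0.11. POLR1C, a subunit shared with RNA polymerase III, was at 216 to 794 in DMSO and at 161 to 714 in palbociclib. It alone of the 3 passed an FDR of 0.05, at -0.25 ± 0.08 on the log2 scale and lower in 9 of 11 pairs.

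Of the 13 genes of small subunit processing, 9 were lower at an FDR under 0.05 and 0 were called at the fold threshold, with a median of -0.33. UTP20, a large scaffold protein of the processome, ranged from 1244 to 3017 CP20M in DMSO (median 2014) and from 742 to 2292 in palbociclib (median 1256), and was lower in 11 of 11 pairs. The log2 fold change was -0.57 ± 0.06. NOB1, the nuclease that makes the last cut at the end of 18S rRNA, changed by -0.46 ± 0.08. HEATR1, WDR3, WDR43 and WDR75, all components of the processome, changed by -0.35, -0.36, -0.33 and -0.35, and each was lower in 11 of 11 pairs. UTP15, BYSL, PNO1 and RRP12 did not pass. RRP12, a factor of subunit export, stood at 1075 to 1735 in DMSO and 898 to 1927 in palbociclib and was higher in 7 of 11 pairs (log2 fold change 0.07 ± 0.07). The log2 fold change of UTP15, -0.16 ± 0.08, turned to 0.032 under median-of-ratios scaling.

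Of the 13 genes of large subunit assembly, 10 were lower at an FDR under 0.05 and 0 were called at the fold threshold, with a median of -0.29. MRTO4, which holds the place of the stalk proteins on the immature subunit, changed most, by -0.51 ± 0.10, and GNL3, the nucleolar GTPase nucleostemin, by -0.47 ± 0.06. PES1, BOP1 and WDR12 form 1 complex, PeBoW. Their log2 fold changes were close to each other, -0.30 ± 0.05, -0.29 ± 0.10 and -0.31 ± 0.08, but PES1 was lower in 11 pairs and the other two in 9. NIP7, NOP2 (an rRNA methyltransferase) and RRP1B did not pass, at -0.16 ± 0.09, -0.12 ± 0.08 and -0.23 ± 0.10. For NIP7 the sign turned under median-of-ratios scaling, to 0.030.

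Among the 5 nucleolar proteins with several functions, 4 were lower at an FDR under 0.05 and 2 were called. LYAR, a nucleolar regulator of cell growth and rRNA processing, ranged from 254 to 849 CP20M in DMSO (median 397) and from 154 to 812 in palbociclib (median 220). The log2 fold change of -0.65 ± 0.11 was seen in 11 of 11 pairs (limma adjusted p = 0.000438). NPM1, which encodes nucleophosmin and has many processed pseudogenes that could share its reads, ranged from 10505 to 36182 in DMSO (median 15355) and from 6364 to 20501 in palbociclib (median 9952). It fell in each of the 11 pairs (log2 fold change -0.60 ± 0.09, limma adjusted p = 0.00017). Both calls rested on the fold threshold. Under median-of-ratios scaling LYAR stood at -0.46 and NPM1 at -0.41, no longer past it, though their adjusted p by limma stayed under 0.05. NCL (nucleolin) and the helicase gene DDX21 changed by -0.33 ± 0.07 and -0.43 ± 0.07. MYBBP1A ranged from 1876 to 5163 in DMSO and from 1693 to 6840 in palbociclib. Its log2 fold change, -0.04 ± 0.07, turned to 0.15 under median-of-ratios scaling and to 0.015 without H28.

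**Figure D2:**
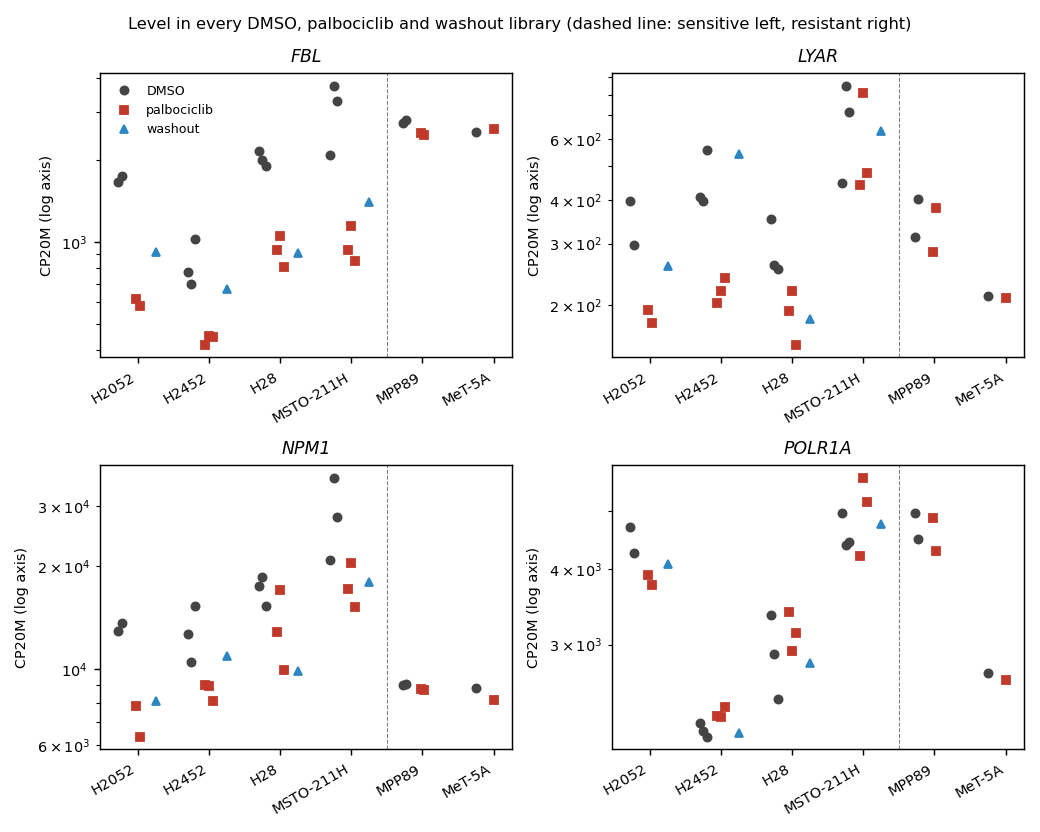
CP20M on a log axis in every DMSO, palbociclib and washout library for FBL, LYAR, NPM1 and POLR1A, 1 point a library, by cell line. FBL in palbociclib is below DMSO in every sensitive line with no overlap inside a line, POLR1A overlaps in H28 and MSTO-211H, and the points of MPP89 and MeT-5A lie close together.

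Per kilobase of the canonical transcript (GENCODE 44), NPM1 was the most abundant of the 40 in DMSO libraries of the sensitive lines, at 13858 CP20M per kb, followed by NCL at 2638, FBL at 1701 and NOP56 at 1530. At the other end stood UTP15, at 133 CP20M per kb. The order of the levels was not the order of the falls, since FBL, with the largest fall, was at rank 3 per kb, NCL at rank 2 and LYAR at rank 32.

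The promoters of the members were read because most of the genes were lower with palbociclib in the sensitive lines. A RefSeq window of 300 bases (GRCh38.p14, from 250 before to 50 after the transcription start) was given for 34 of the 40 genes. BOP1, NOLC1, RRP1B, RRP12, RRS1 and NOP58 have none. The E-box CACGTG, the core motif that MYC with MAX, and also USF factors, can bind, reads the same on both strands. It was found in the windows of 14 of these 34 genes, 41.2%, against 12.3% of the tested genes with a window and 8.77% of all genes with one. In 4 genes it lay before the start and in 10 after it. The 26 bases around it are shown for the 5 genes that hold it and fell most, and for the 2 that hold it, have 10 bases on either side in the window, and changed least (capitals mark the motif, and each is read 5′ to 3′ on the strand of the gene):
FBL: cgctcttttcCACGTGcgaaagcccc
LYAR: gcggcgagtcCACGTGctccccgcgg
UTP20: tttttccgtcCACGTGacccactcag
MRTO4: tcttccgccgCACGTGgattcagcgc
GNL3: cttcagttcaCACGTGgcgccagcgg
PNO1: tgcagctgcgCACGTGtttcagccgg
MYBBP1A: ggccggagcaCACGTGtttcgtgttt
These stretches lie at chr19:39846358-39846383 (FBL, minus strand), chr4:4290070-4290095 (LYAR, minus strand), chr12:101280085-101280110 (UTP20, plus strand), chr1:19251809-19251834 (MRTO4, plus strand), chr3:52686028-52686053 (GNL3, plus strand), chr2:68157887-68157912 (PNO1, plus strand) and chr17:4555342-4555367 (MYBBP1A, minus strand). Counting the RefSeq start as base 1, the motif begins at base 7 in FBL and GNL3. In LYAR it begins 64 bases before the start. The members with and without the motif differed little in response. The median log2 fold change in the sensitive lines was -0.38 in the 14 genes with it and -0.32 in the 20 without it, and MYBBP1A, with the smallest difference among its holders, carries it from base 28.

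The sensitive lines differed in how far these genes fell. The median log2 fold change was -0.59 in H2052 (all genes -0.24), where all 40 were below 0. It was -0.37 for H2452 (all genes -0.10), -0.23 for H28 (all genes -0.05) and -0.14 for MSTO-211H (all genes -0.11), with 38, 36 and 28 genes below 0. Of all genes tested, 69.2% (H2052), 60.3% (H2452), 55.6% (H28) and 58.7% (MSTO-211H) were below 0. In the lines fitted alone, H2052 had 18 genes called lower (13.0% of all genes tested), H2452 had 5 (10.8%), H28 had 3 (7.34%) and MSTO-211H had 2 (7.94%). None were called higher in any of the 4 lines, against 4.67%, 6.04%, 5.89% and 5.90% of all genes. FBL was called lower in each of the 4, with log2 fold changes of -1.49 ± 0.09 (SE, H2052, 2 pairs), -0.89 ± 0.13 (H2452), -1.11 ± 0.09 (H28) and -1.59 ± 0.18 (MSTO-211H, 3 pairs each). UTP20 was called in the first 3 of these lines. NOB1 was the second gene called in MSTO-211H, at -0.69 ± 0.07, and LYAR was called in H2452 at -0.998 ± 0.11, whereas its mean difference in MSTO-211H was -0.22. The 18 calls of H2052, which rest on 2 pairs, became 1 under either other scaling (3.76% and 4.41% of all genes) and 0 when the variance was not modelled on the level (0 of all genes), and with any 1 pair left out of H28 or MSTO-211H, or the first or the last of H2452, no gene of the whole matrix was called in that line. In MSTO-211H the median of the 40 genes turned to 0.031 under median-of-ratios and to 0.010 under upper-quartile scaling.

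**Figure D3:**
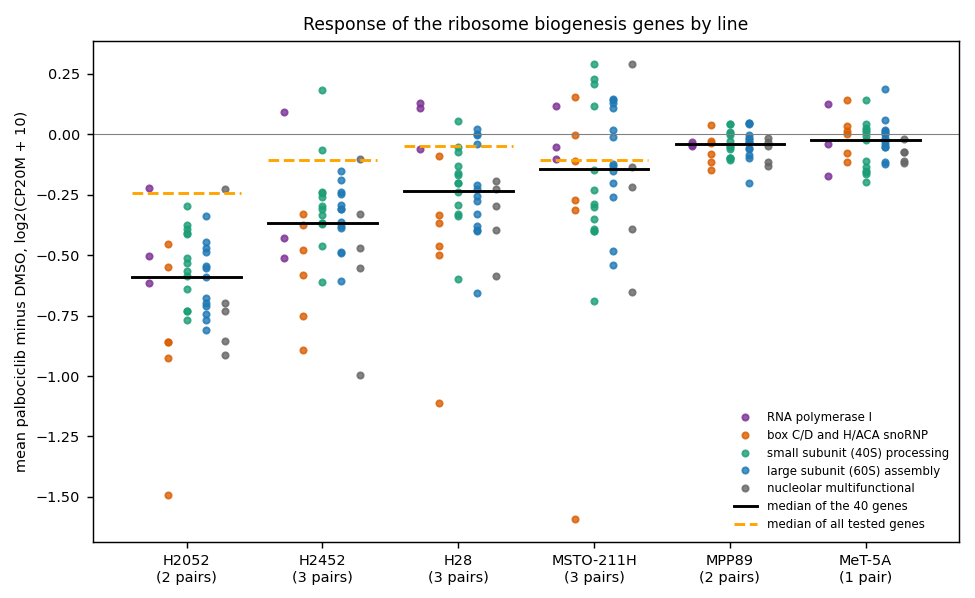
Mean difference between palbociclib and DMSO in log2(CP20M + 10) for each of the 40 genes by line, coloured by role. Black bars give the median of the 40 genes and dashed bars, for the 4 sensitive lines, that of all tested genes: the black bars run from -0.59 in H2052 to -0.14 in MSTO-211H, where the 2 bars nearly meet, and lie near 0 in MPP89 and MeT-5A.

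An F test of the response among the 4 sensitive lines passed an FDR of 0.05 for 15 of the 40 genes, against 37.1% of all genes tested. The smallest adjusted p values by limma were those of RRP1B (0.00208), WDR12 (0.0117), NIP7 (0.0122) and UTP15 (0.0143). RRP1B, an assembly factor of the large subunit, stood at 2447 and 1779 CP20M in DMSO and at 1353 and 1042 in palbociclib in H2052. In MSTO-211H it stood at 3395, 4236 and 4209 in DMSO and at 3874, 5134 and 3974 in palbociclib. All H2052 libraries with palbociclib were below those with DMSO, and in MSTO-211H the groups overlapped. The mean log2 difference of RRP1B ran from -0.81 ± 0.06 (SD, H2052) through -0.39 ± 0.05 (H2452) and -0.04 ± 0.14 (H28) to 0.13 ± 0.19 (MSTO-211H). That of WDR12 was -0.55 ± 0.09 (H2052), -0.25 ± 0.15 (H2452), 0.02 ± 0.06 (H28) and -0.54 ± 0.15 (MSTO-211H). NIP7, which acts in pre-rRNA processing, had -0.70 ± 0.12 in H2052 and 0.02 ± 0.21 in MSTO-211H, and UTP15 had -0.38 ± 0.19 and 0.23 ± 0.13. This count is near the share of all genes. It was 8 under either other scaling (33.7% and 34.9% of all genes), 5 without the first H2052 pair (29.4%) and 1 without the experiment as a block (14.7%).

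In the 2 resistant lines the changes were small, though most of the 40 genes lay slightly below 0. No gene of the 40 was called, as was no gene of the whole matrix, where 7.07% had an unadjusted p under 0.05 in limma, against 5 of the 40, all 5 of them lower. The median log2 fold change of the 40 genes was -0.04 (all genes 0.01), and the lowest and the highest were -0.12 and 0.07. It was below 0 for 33 of the 40 genes, against 42.7% of all genes tested. FBL stood at 2722 and 2807 CP20M in DMSO and at 2515 and 2478 in palbociclib in MPP89, and at 2540 and 2598 in MeT-5A. NPM1 went from 8997 and 9048 to 8740 and 8693 in MPP89, and from 8845 to 8137 in MeT-5A. The direct test of the difference between sensitive and resistant lines over all 14 pairs found 5 of the 40 genes lower in the sensitive lines at an FDR under 0.05 (7.81% of all genes tested) and 0 higher (1.56%). These were FBL at -1.17 ± 0.21 (limma adjusted p = 0.00518), UTP20 at -0.53 ± 0.12 (0.0166), GNL3 at -0.47 ± 0.12 (0.0239), DKC1 at -0.54 ± 0.16 (0.0422) and HEATR1 at -0.34 ± 0.10 (0.0459). Without the single pair of MeT-5A 0 of the 40 were lower (0.859% of all genes), without either MPP89 pair 1 was (0.972% and 1.21%), and under either other scaling 1 was (2.88% and 2.81%). Resistance and the line cannot be told apart with 2 resistant lines of different origin. Experiments, not lines, were the units of this test, so its p-values do not measure the spread between lines of a class.

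After 48 h without drug the levels of most of the 40 genes, taken over the 4 lines together, lay between those with palbociclib and those with DMSO. No rise passed the test. In H28 the log2 differences between washout and palbociclib ran from -0.25 (BYSL) to 0.33 (BOP1), with many genes on either side of 0. In the 4 experiments with a washout library, the median of the 40 genes was -0.39 for palbociclib against DMSO and -0.21 for washout against DMSO, and the corresponding medians of all genes were -0.14 and -0.05. Both use the same DMSO libraries. In these 4 experiments palbociclib against DMSO had 8 of the 40 genes called lower (13.3% of all genes tested) and 0 higher (5.30%). Against palbociclib the median of the 40 genes was 0.15 (all genes 0.09), and 0 were called higher (1.40% of all genes tested) and 0 lower. Of the 40 genes, 17 were higher in washout in all 4 lines, which was not counted over all genes. Only 3 of the 40 had a log2 fold change below 0 here, against 31.5% of all genes tested. By unadjusted p in limma 11 of the 40 were under 0.05, against 13.0% of all genes in either direction. The scale mattered here too, since upper-quartile scaling turned this median to -0.04 and that of all genes to -0.09.

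LYAR, FBL and NOP58 had the largest differences between washout and palbociclib, none of which passed the test. LYAR went from 297 CP20M in DMSO to 177 in palbociclib and 259 in washout in H2052, and from 558 to 239 and 542 in H2452. The H28 libraries held 254, 154 and 182, and the MSTO-211H libraries 715, 479 and 631. Its log2 difference between washout and palbociclib was 0.57 ± 0.15 (n = 4 lines, limma adjusted p = 0.113). FBL, at 580, 448, 810 and 851 with palbociclib (H2052, H2452, H28, MSTO-211H), was at 922, 669, 909 and 1405 after washout, a log2 difference from palbociclib of 0.53 ± 0.13 (adjusted p = 0.103). Its washout level lay between the other 2 in every line, nearest to palbociclib in H28. NOP58 changed by 0.43 ± 0.11 (adjusted p = 0.0976).

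Against DMSO, 3 of the 40 genes were still called lower after washout, FBL at -0.95 ± 0.13 (limma adjusted p = 0.00533), NPM1 at -0.63 ± 0.10 (0.00795) and NOB1 at -0.59 ± 0.12 (0.0199), against 2.95% of all genes tested. None were called higher (2.81%), and 10 were lower at an FDR under 0.05 (7.43%). Of the 40 genes, 22 were below DMSO in all 4 lines, which was not counted over all genes. Log2 fold changes were below 0 for 36 of the 40, against 56.2% of all genes tested. NPM1 went from 13640 in DMSO to 6364 in palbociclib and 8075 in washout in H2052 and from 15330 to 8084 and 10910 in H2452. In MSTO-211H it went from 27771 to 15240 and 18028. In H28 it went from 15355 to 9952 and was no higher in washout, at 9884. NOB1, at 613, 852, 943 and 3086 with palbociclib in the 4 lines, was at 621, 883, 834 and 3076 after washout, a log2 difference of -0.03 ± 0.12. POLR1A and RRP12 had log2 differences between washout and palbociclib of -0.08 ± 0.09 and -0.01 ± 0.11. With 1 washout library a line, the 3 calls against DMSO became 0 without H2052 (0.691% of all genes), 1 without MSTO-211H (0.921%) and 0 without the line as a block (0 of all genes).

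**Figure D4:**
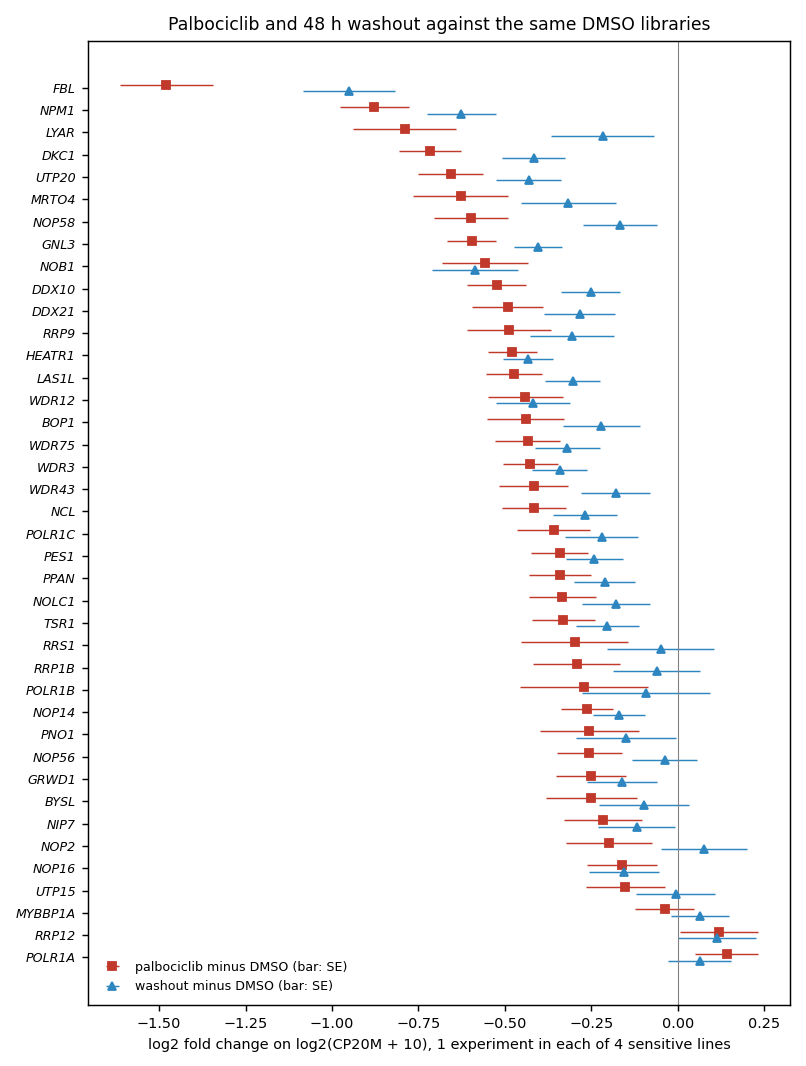
Log2 fold change (with its SE as a bar) of palbociclib against DMSO (squares) and of washout against DMSO (triangles) for the 40 genes, over 1 experiment in each of 4 sensitive lines, with the same DMSO libraries in both. Most triangles lie between the square and 0, FBL and NPM1 remain at -0.95 and -0.63, and for NOB1 the 2 marks nearly coincide.

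Over the 14 DMSO libraries an F test among lines passed an FDR of 0.05 for 37 of the 40 genes, near the 95.6% of all genes tested. The exceptions were NOP2, MRTO4 and LAS1L. The ratio of the highest to the lowest line had a median of 2.35 and ran from 1.31 (LAS1L) to 7.95 (NOB1). MSTO-211H was the highest line for 24 of the 40 genes and the lowest for 0, whereas MeT-5A was the lowest for 18, H2452 for 12, H2052 for 7 and H28 for 3. NPM1 in DMSO averaged 28248 ± 7707 CP20M (SD, n = 3) in MSTO-211H, 17133 ± 1629 (n = 3) in H28, 13287 ± 499 (n = 2) in H2052, 12832 ± 2417 (n = 3) in H2452 and 9022 ± 36 (n = 2) in MPP89, and was 8845 in the single MeT-5A library. The 3 replicates of MSTO-211H ranged from 20791 to 36182, all above the other lines, and H2052 and H2452 overlapped. FBL was lowest in H2452, at 835 ± 172, and highest in MSTO-211H, at 3030 ± 852.

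The smallest adjusted p values at baseline belonged to BOP1 (2.35e-07), NOB1 (3.32e-07) and NIP7 (1.87e-06). BOP1 averaged 4970 ± 641 CP20M in MSTO-211H and 3760 ± 128 in H2052, and between 1038 ± 119 (H2452) and 1776 ± 303 (MPP89) in the other lines. NOB1 stood at 4282, 7781 and 5050 in MSTO-211H, and at 686 to 1320 in the 11 DMSO libraries of the other 5 lines. NIP7 stood at 2099, 3175 and 2384 in MSTO-211H, where the other lines had 558 to 994. These 2 genes lie in the same region on the long arm of chromosome 16 (GENCODE 44, GRCh38). NIP7 is at chr16:69337996-69343106 on the plus strand and NOB1 at chr16:69741871-69754926 on the minus strand. They are 398.8 kb apart, with other tested genes, such as TERF2 and NFAT5, between them. The window from 69000000 to 70000000 on this chromosome, looked at after their values were seen, holds 21 other tested genes. All 21 were above the mean of the other 5 lines in the DMSO libraries of MSTO-211H, by a median of 1.07 on the log2 scale and by 0.22 to 2.52, and MSTO-211H was the highest line for 17 of the 21, against 17.2% of all tested genes. Some overlap NIP7 (COG8 and antisense or readthrough entries) or NOB1, so these are not independent measurements, and copy number was not measured here.

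**Figure D5:**
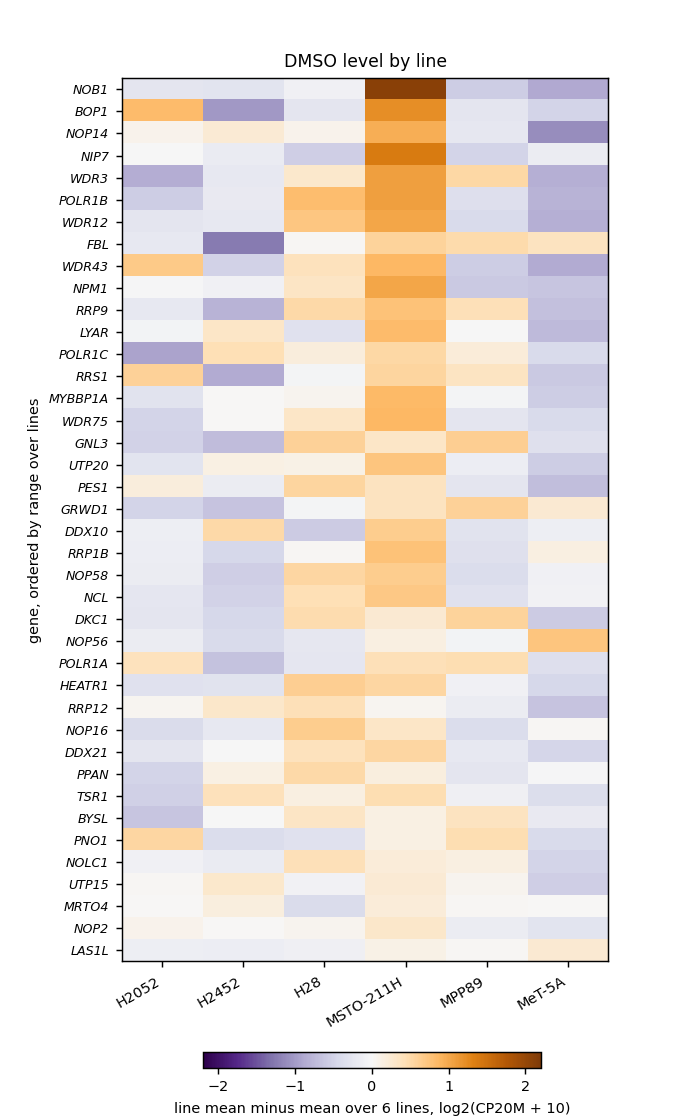
Mean log2(CP20M + 10) of the DMSO libraries of each line minus the mean over the 6 lines, for the 40 genes in order of their range over lines. MSTO-211H is above the mean in all 40 rows, most of all for NOB1 and NIP7, and LAS1L at the bottom hardly differs between lines, with a ratio of 1.31.

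The rest of the pathway was read from a list of 111 further genes, with 112 entries in the matrix since EMG1 has 2. In the sensitive lines 12 entries were called lower (9.37% of all genes) and 0 higher (5.58%), and 74 were lower at an FDR under 0.05 (33.7%). The median log2 fold change was -0.32 (all genes -0.11), near that of the 40 genes. These counts were not repeated under other scalings. The calls lay in 3 roles: 5 of 14 genes of the RNA exosome and other trimming nucleases, 5 of 43 of large subunit assembly and 2 of 11 of RNA polymerase I, with 0 of 37 for the small subunit and 0 of 7 for the snoRNPs. The largest falls were those of 3 exosome subunits, the complex that trims the 3′ end of 5.8S rRNA: EXOSC9 at -1.15 ± 0.11, EXOSC8 at -1.04 ± 0.11 and EXOSC2 at -0.97 ± 0.12, each in 11 of 11 pairs. EXOSC9 averaged 679 CP20M in DMSO and 319 in palbociclib, EXOSC8 682 and 334, and EXOSC2 1103 and 589. These 3 were also called higher in washout than in palbociclib (1.40% of all genes tested). The log2 differences were 0.79 ± 0.14, 0.60 ± 0.12 and 0.70 ± 0.12, with limma adjusted p of 0.0274, 0.0418 and 0.0238. The 3 genes were picked for their fall, and the palbociclib libraries used here also entered that ranking. Low values in these libraries therefore favour a rise by the choice itself. The number of the 112 entries called higher is not given here. No gene of the whole matrix was called in this comparison without H2052, without H2452, without MSTO-211H or without the line as a block. The 2 called entries of RNA polymerase I were TAF1A (-0.61 ± 0.09) and TAF1C (-0.60 ± 0.08), subunits of the factor SL1 that places the polymerase on the promoter of the ribosomal DNA. Both lay just past the fold threshold and were not refitted under other settings. The 3 exosome subunits were refitted in the sensitive lines and stayed called lower under all 25 other settings.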

How the data were processed

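Total RNA of 33 samples was sequenced as paired-end, strand-directed libraries. The authors trimmed reads with Trimmomatic 0.36, aligned them to GRCh38 with STAR 2.5.3, counted reads per gene of Ensembl release 90 with HTSeq 0.9.1 and deposited 1 matrix of counts scaled to 20000000 reads and rounded up to whole numbers. The deposited values are therefore a score and not counts, so no count model was run, and the read numbers behind them are estimates. Groups came from the labels, and libraries were compared as deposited. The filter kept genes that reached 100 CP20M in 1 or more libraries. These were fitted on log2(CP20M + 10) by limma 3.58.1 (R 4.3.3, trended variance), each experiment being a block, or each line for the washout. Labels tie the DMSO, palbociclib and washout libraries of 1 experiment, and deviations from group means correlated within the 13 pairs of lines with replicates (r from 0.181 to 0.783). Replicates are numbered experiments of 1 line, so p-values measure only the spread between these samples. No 2 replicates shared more than 4.33% of their values. The functions were tested on simulated data. The untreated MeT-5A library entered the filter and 1 alternative.

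The 40 genes, the further list and its roles were chosen with earlier results of these data known. All genes were accounted for by role. Values were given, by rule, for POLR1A, POLR1B, POLR1C, NPM1, NCL and FBL, for the largest falls and rises among called genes, the 3 smallest changes, the 4 smallest F test p values among lines, the 3 largest rises and falls after washout and the 3 smallest p values at baseline. Other genes with values, such as DKC1, UTP20, GNL3, HEATR1, MRTO4, NOP56, DDX21, PES1, TAF1A and TAF1C, were picked after their values were seen. Promoter windows were RefSeq sequences of GRCh38.p14. Alternatives were other pseudocounts, filters, scalings and variance models, no block, line means, and each pair or line left out.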

Additional observations from a re-analysis of the deposited data

Results flagged for a closer look

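The response to palbociclib differed among the 4 sensitive lines, by the F test of limma over 11 pairs, for 15 of the 40 genes, near the 37.1% of all genes tested. The adjusted p was 0.00208 for RRP1B, 0.0117 for WDR12, 0.0122 for NIP7, 0.0143 for UTP15, 0.015 for BOP1, 0.0157 for NOP58, 0.0162 for NOB1 and 0.0185 for MYBBP1A. It was 0.0228 for PNO1, 0.0233 for WDR43, 0.0247 for RRS1, 0.0351 for NOLC1, 0.0359 for POLR1B, 0.0481 for LYAR and 0.0486 for NOP2. The response also differed between the pairs of sensitive and of resistant lines, by the same tool over 14 pairs, for 5 of the 40 genes (7.81% of all genes lower). That count was 0 without the MeT-5A pair and 1 under either other scaling. The limma adjusted p was 0.00518 for FBL, 0.0166 for UTP20, 0.0239 for GNL3, 0.0422 for DKC1 and 0.0459 for HEATR1. Experiments, not lines, were the units, so these values do not measure the spread between lines of a class.

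Single lines stood far from the other 3 in 3 of the 32 sets of 4 washout differences that were checked by Dixon's ratio (gap over range), where chance alone marks about 1 in 20. POLR1A in H2052 was higher in washout than in palbociclib by 0.12 on the log2 scale while the other 3 lines lay between -0.17 and -0.12, a ratio of 0.834. POLR1C in H2452 differed from DMSO by -0.43 after washout, with the others between -0.16 and -0.13, a ratio of 0.882. NCL in H2052 differed from DMSO by -0.41, with the others between -0.24 and -0.20, a ratio of 0.844.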

How the results depend on the processing

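Scaling moved counts and medians in most comparisons, and the cause of the shift was not tested. Median-of-ratios factors ran from 0.78 to 1.33 and upper-quartile factors from 0.75 to 1.42. Under median-of-ratios scaling, genes called lower numbered 1 in the sensitive lines together (5.17% of all genes). In the lines alone they numbered 1 (H2052, 3.76%), 2 (H2452, 6.53%), 1 (H28, 5.48%) and 1 (MSTO-211H, 3.53%). In the sensitive lines together 16 were lower at an FDR under 0.05 (17.1% of all genes). The medians of the 40 genes were -0.11, -0.28, -0.17, -0.10 and 0.031, the last reversed, and -0.069 in the resistant lines. Under upper-quartile scaling the called genes numbered 1, 1, 2 and 1 (sensitive together, H2052, H2452, MSTO-211H), against 5.5%, 4.41%, 6.71% and 4.13% of all genes. At an FDR under 0.05, 16 were lower in the sensitive lines together (18.8% of all genes). Medians were -0.23 in H2052, -0.18 in H2452, 0.010 in MSTO-211H, reversed, and -0.076 in the resistant lines. Between sensitive and resistant lines 1 gene passed under either scaling (2.88% and 2.81% of all genes), with medians of -0.035 and -0.052. Among sensitive lines 8 passed under either (33.7% and 34.9%). Washout against palbociclib had medians of 0.015 under median-of-ratios and -0.044 under upper-quartile scaling, the second reversed. Washout against DMSO had 1 call (1.57% of all genes) and a median of -0.12 under median-of-ratios scaling.

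Single genes reversed in sign without passing the test. In the sensitive lines these were, by median-of-ratios and upper-quartile scaling, UTP15 (0.032 and 0.0089), NIP7 (0.030 and 0.0071) and MYBBP1A (0.15 and 0.13, and 0.015 without H28). For washout against palbociclib they were WDR12 (-0.12 and -0.17, -0.034 without H2052, -0.0074 without MSTO-211H and 0.095 without H28), NIP7 (-0.042 and -0.10) and MYBBP1A (-0.039 and -0.097). By upper-quartile scaling alone they were POLR1B (-0.019), POLR1C (-0.056), UTP15 (-0.052) and NCL (-0.052). RRP12 was at 0.081 without H2452 and 0.016 without H28, and NOB1 at 0.022 without H28 and -0.054 without H2452. For washout against DMSO they were POLR1B (0.0026 by median-of-ratios scaling, 0.049 without H2452, -0.24 without H28), RRP1B (0.035 by median-of-ratios scaling, 0.012 without H2052) and UTP15 (0.089 by median-of-ratios and 0.020 by upper-quartile scaling, 0.079 without H2452, 0.038 without H28, -0.13 without MSTO-211H).

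Without the replicate block, calls numbered 1 in H28 (5.68% of all genes) and 1 in MSTO-211H (6.72%). They numbered 1 between sensitive and resistant lines (6.2%), 1 among sensitive lines (14.7%) and 0 for washout against DMSO (0 of all genes). In this fit without the pairing, the genes lower at an FDR under 0.05 went from 21 to 9 in H2452 (21.7% to 14% of all genes). They went from 7 to 3 in H28 (11.4% to 7.38%) and from 5 to 2 in MSTO-211H (9.98% to 8.22%). For washout against DMSO they went from 10 to 0 (7.43% to 0). All genes called higher in washout against palbociclib went from 250 to 0. In H2052 there were 7 calls with a pseudocount of 1 (4.44% of all genes), 1 with no filter (0.545%) and 0 without the variance trend (0 of all genes). The last 2 settings gave 2 and 3 genes between sensitive and resistant lines (1.96% and 7.08% of all genes). Line means as units gave 5 calls (7.59% of all genes) and 13 genes at an FDR under 0.05 (11.9%) in the sensitive lines. The 4 pairs of the washout experiments alone gave 8 (9.72%) and 14 (12%). Leaving out pairs or lines in turn gave 2 to 6 calls and 24 to 33 genes at an FDR under 0.05 in the sensitive lines (medians -0.36 to -0.25), 0 to 5 calls in H2452, 0 in H28 and MSTO-211H, 0 to 9 between classes, 5 to 16 among sensitive lines and 0 to 3 for washout against DMSO. The shares of all genes in the sensitive lines were 8.21% to 11.6% called lower and 27.6% to 33.7% lower at an FDR under 0.05. They were 0 to 5.75% in H2452, 0.859% to 9.13% between classes, 25.8% to 38.7% among sensitive lines and 0.691% to 2.33% for washout against DMSO. NPM1 kept an adjusted p under 0.05 but dropped inside the fold threshold without any of 4 pairs (H2052 2, H2452 3, MSTO-211H 2 or 3) or without H2052 or MSTO-211H, and LYAR without H2452 or with a pseudocount of 50. Leaving out a pair of H2052 leaves 1 pair and no test, and was not run. Of all counts and medians under other settings, 242 stayed near the main fit, 66 moved and 3 reversed in sign. A count was near when within a factor of 1.5 of the main count, so genes may have crossed the threshold in it. A median was near when it kept its sign and moved by less than the SD between pairs. For single genes, 803 other results kept their direction and their side of the threshold. Depth limits none of the 40 levels, but the rounded values hold no counting error.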

Other observations

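MeT-5A had 1 untreated library that belongs to no comparison. It stood at 4994 CP20M for NCL and 1790 for FBL, where the DMSO library of this line had 8433 and 2540, at 8562 and 8845 for NPM1, and at 6591 and 5360 for NOP56. With 1 library of each the differences have no replicate check.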
